A study of Bos taurus with 24 samples.

Results

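The genes described here encode the proteasome of cattle muscle: its subunits, its activators and inhibitor, and the chaperones that assemble it. They were taken from the array by symbol, as every gene whose name is PSM followed by a letter from A to G and a number, with the brightest feature of each gene and a mean over all 24 arrays at or above the 25th percentile of all features. The symbol pattern found 48 genes, each with 1 feature, and 46 of them lay above that limit of 6.76 on the log2 scale, out of 14198 genes tested. The genes left below it were PSMA8, a testis subunit with a mean of 6.20, and PSMB9, an immunoproteasome subunit with a mean of 6.33. The nearest genes above it were PSMB11 with 6.91 and, about 1 log2 unit over the limit, PSMB8 with 7.74.

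The proteasome degrades proteins that have been tagged with ubiquitin. Its core is a barrel of stacked rings: outer rings of alpha subunits, which gate the entrance, and inner rings of beta subunits, of which PSMB5, PSMB6 and PSMB7 carry the catalytic sites. A regulatory particle caps the barrel, with a base of ATPases (PSMC genes) that unfold the substrate and a lid and receptors (most PSMD genes) that bind ubiquitin and remove it. In skeletal muscle, known chiefly from rodents and humans, this system breaks down myofibrillar proteins, and its genes are known to respond to fasting. Under interferon, PSMB8, PSMB9 and PSMB10 replace the catalytic subunits to form the immunoproteasome, which makes peptides for antigen presentation.

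The arrays measured gluteus medius muscle, taken by needle from 12 crossbred beef cows at 2 biopsies each. The cows were the extremes for weight gain among 121 animals: 6 with high gain and 6 with low gain, ranked on gain during free feeding. All had first been kept for 112 days on a ration set at 120 kcal (metabolizable energy) for each kg of metabolic weight, with muscle taken on day 105, and then had feed freely for 112 days, with muscle taken on day 49. The labels number the biopsies only, so biopsy 2 is taken here as the free feeding sample and biopsy 1 as the one on the set ration, after the order of the protocol. This gave 4 groups of 6 arrays: the high gain class at biopsy 2 and at biopsy 1, and likewise the low gain class at biopsy 2 and at biopsy 1. Cows are numbered 1 to 6 within a class in accession order. The ages of the cows and a continuously fed control group were not analysed here, and every cow passed through both periods in the same order.

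Several properties of the whole series bear on these genes. Arrays of the 2 biopsies appeared to have been normalized as separate sets, with a highest value of 19.93 in the biopsy 2 set and 19.81 in the biopsy 1 set, so biopsy number and processing set cannot be told apart. Comparisons between biopsies therefore used quantile normalization over all 24 arrays. The mean of 12 muscle fibre marker genes was 18.9 to 19.7 on 23 arrays, near the top of the scale, and 15.3 on the biopsy 1 array of low gain cow 4. That array also had high means of 8 adipocyte markers (15.8) and 8 fibroblast markers (13.8), and a correlation with its group of 0.862. The biopsy 2 array of high gain cow 4 had an adipocyte marker mean of 16.7 and a correlation of 0.942 with its group, and the other 22 arrays had correlations of 0.966 to 0.984. In bulk muscle, fewer cells of a type and less RNA per cell cannot be told apart.

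The biopsy 1 array of low gain cow 4, which stood apart from its group over the whole array, was also low for most proteasome genes. Of the 46 genes, 34 had their lowest value of all 24 arrays there. The same share over all genes was not counted, so the 34 cannot be read as particular to proteasome genes. Relative to each gene's mean over 24 arrays, the beta ring averaged -2.18 on it, the ATPases -1.50, the lid and receptor genes -1.31 and the alpha ring -1.11, while the 3 immunoproteasome and thymoproteasome genes averaged 0.12. The other regulators averaged -1.26 and the assembly chaperones -0.56, with PSMG4, PSMG1 and PSMD9 above their means. The other array of the same cow, at biopsy 2, held the highest value of 24 for 10 genes, a count also without its share over all genes. Values without this cow are given in the text beside only some results between biopsies. The plot of the change of each gene between the biopsies shows them for every gene. Genes with no such value in the text can depend on this cow too. Its change was the largest of all cows for PSMC5 (2.74), PSMF1 (2.47), PSMB6 (2.04) and PSMD2 (1.93). The part of the marker levels in the results between biopsies was not tested.

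**Figure D1:**
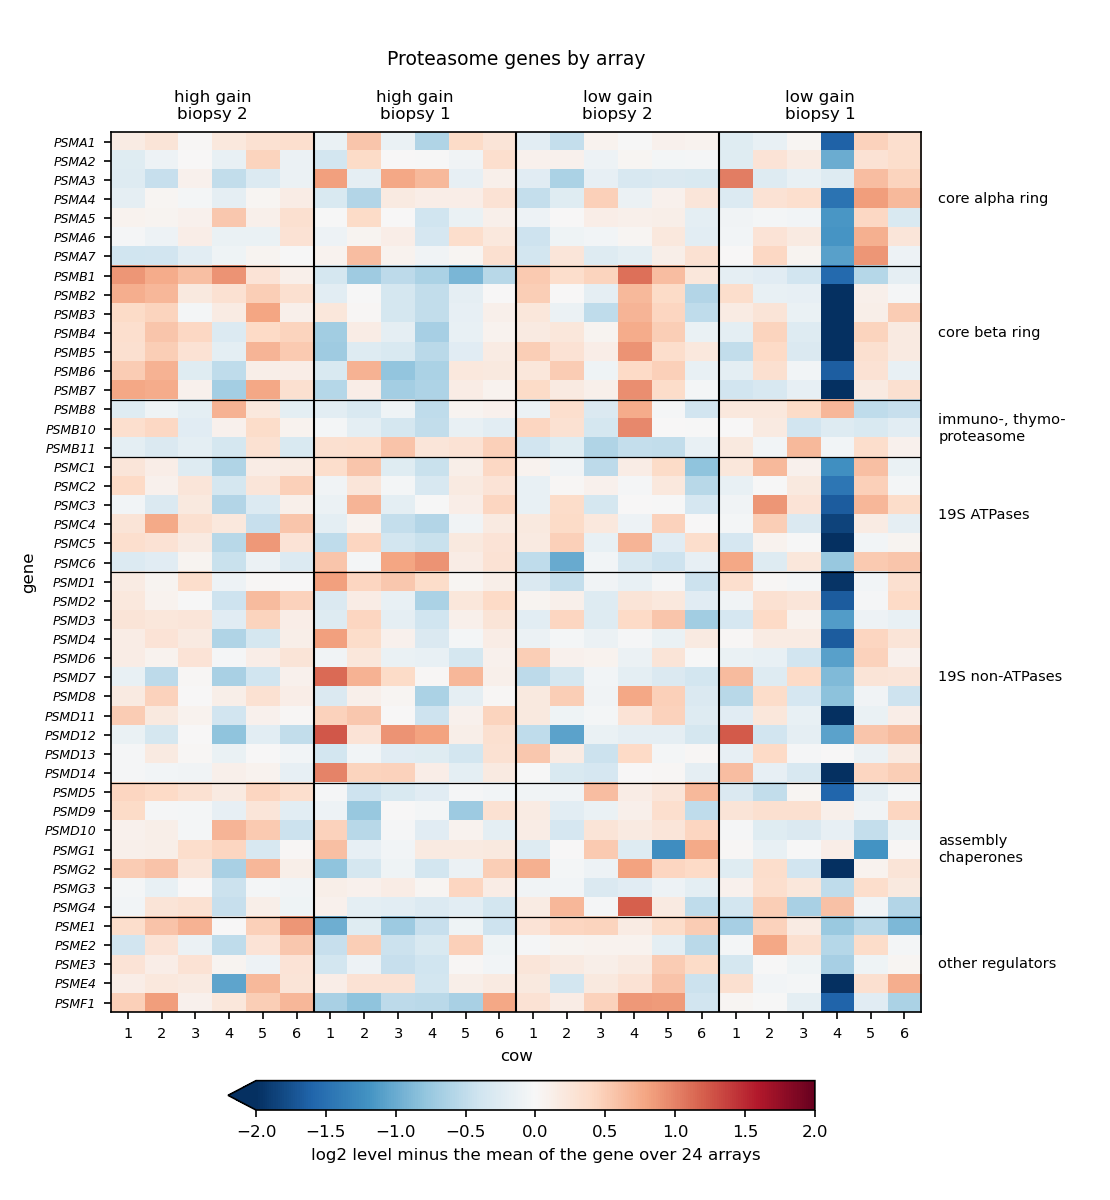
Level of each of 46 proteasome genes (rows, by class) on each of 24 arrays (columns, by group and cow), as the quantile-normalized log2 level minus the mean of that gene over all arrays. The column of low gain cow 4 at biopsy 1 is blue for most genes. Its mean was below 0 in every class except the immuno- and thymoproteasome, where it was 0.12. Among the assembly chaperones PSMG4, PSMG1 and PSMD9 lie above their gene means there. PSMB1 is red at biopsy 2 and blue at biopsy 1 in both gain classes.

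Between the biopsies the proteasome genes did not move as a block. At biopsy 2, relative to biopsy 1 in the same cows, 11 of the 46 genes rose and 6 fell (limma with the cow as a block, adjusted p under 0.05 over all 14198 genes). Over all genes tested, 38.1% changed in either direction, 20.8% upward and 17.4% downward, so 17 of 46 proteasome genes is a share near that background. The median change of the 46 genes was 0.16 on the log2 scale, and that of all genes 0.02. By class, 3 of 7 beta ring genes rose and none fell, 3 of 5 other regulators rose and none fell, and 1 of 7 alpha ring genes fell and none rose; the classes were not tested against each other. Among the ATPases 1 of 6 rose and 1 fell, among the 11 lid and receptor genes 1 rose and 2 fell, and among the 7 assembly chaperones 2 rose and 1 fell.

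The balance of rises and falls depended on the scaling and on 1 cow. With the values as deposited, 18 of the 46 genes rose and 1 fell, against a background of 40.5% (28.6% upward and 11.8% downward). The share of all calls that were upward was then 70.8%, against 54.5% with quantile normalization, and the median of all genes was 0.12. Without low gain cow 4, 13 genes rose and 10 fell against a background of 41.5%, and the median change of the 46 genes was 0.07. All 17 genes called with 12 cows were called without that cow, and PSMB2 and PSMB4 (higher) and PSMC1, PSMC3, PSMD1 and PSMD14 (lower) were added.

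**Figure D2:**
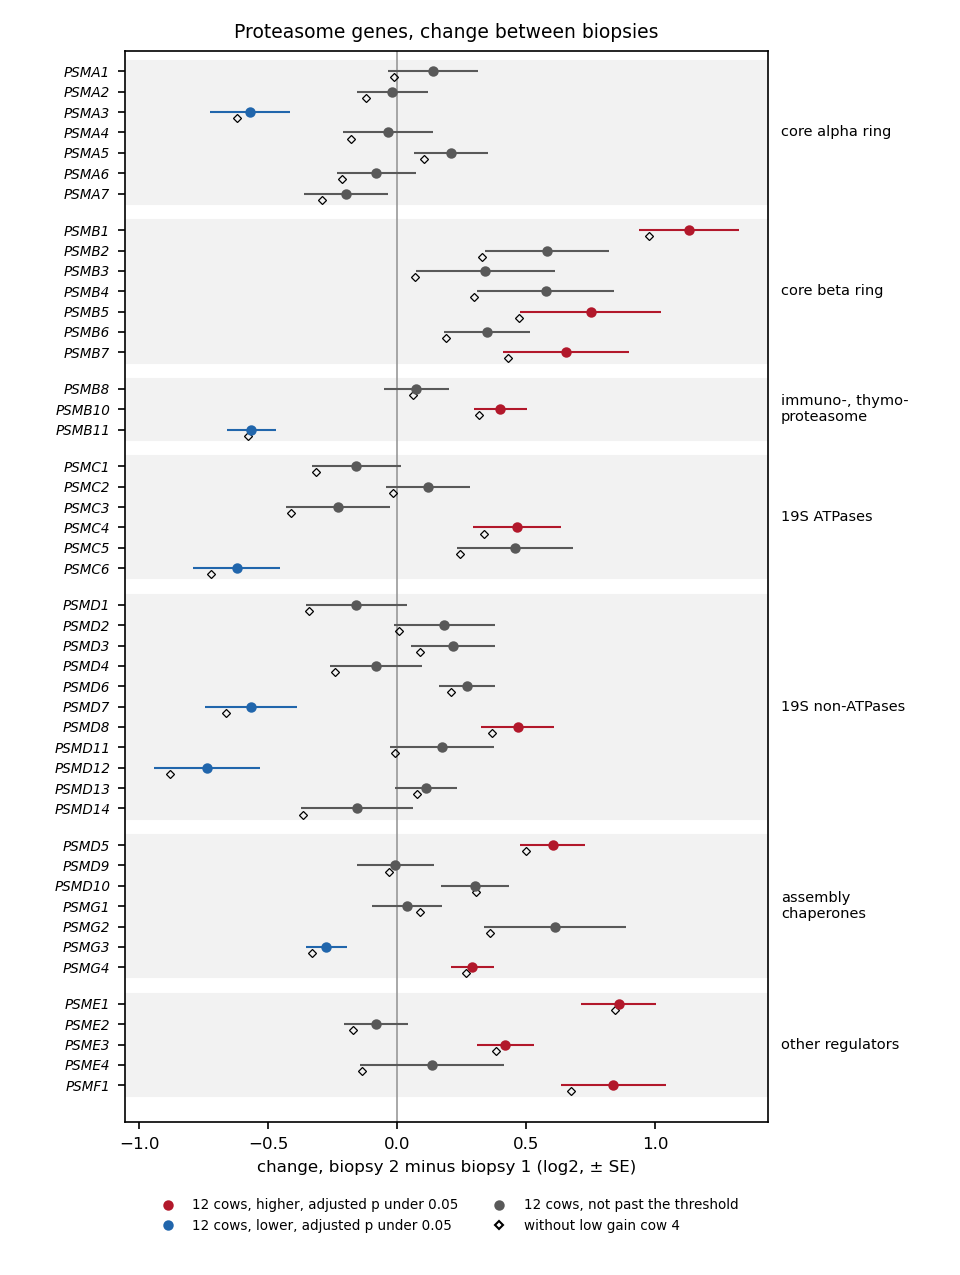
Change of each proteasome gene between the biopsies, as biopsy 2 minus biopsy 1 on the log2 scale, with limma's standard error, for 12 cows (filled circles, coloured where the adjusted p was under 0.05) and without low gain cow 4 (open diamonds). All 7 beta ring genes lie right of 0, from 0.34 to 1.13 with 12 cows and from 0.07 to 0.97 without that cow.

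The beta ring held the gene with the largest increase of the family. PSMB1 encodes beta6, a structural subunit of the inner rings. Its level was lowest 15.64, median 16.21 and highest 16.45 in high gain cows at biopsy 2, against 14.62, 14.95 and 15.20 in high gain cows at biopsy 1. Low gain cows had 15.77, 16.03 and 16.64 at biopsy 2, against 13.99, 15.23 and 15.37 at biopsy 1. All 12 arrays of biopsy 2 lay above all 12 of biopsy 1, as they did for 1.63% of the genes tested and for no other proteasome gene. The opposite order held for 1.34% of all genes (2.97% for either order) and for no proteasome gene. The change of PSMB1 was 1.13 ± 0.19 (SE), a 2.19-fold higher level (adjusted p = 0.000628), and it was higher at biopsy 2 in 12 of 12 cows, by 0.41 to 2.65. The largest of these cow differences was that of low gain cow 4; without it the change was 0.97.

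The catalytic beta genes moved less evenly. PSMB5, the chymotrypsin-like beta5, had a lowest, median and highest level of 12.61, 13.20 and 13.49 in high gain cows at biopsy 2, against 12.10, 12.52 and 12.96 at biopsy 1. PSMB5 in low gain cows had 12.94, 13.12 and 13.70 at biopsy 2, against 10.07, 12.75 and 13.20 at biopsy 1. The groups overlapped in both classes, and the array of low gain cow 4 lay more than 2 units under the next. The increase of 0.75 ± 0.27 passed narrowly (adjusted p = 0.0452), with 11 of 12 cows higher. It did not pass on omission of any 1 of 8 cows (each high gain cow, and low gain cows 1 and 3; 0.71 to 0.79, adjusted p = 0.0548 to 0.0851), and it passed with 0.47 without low gain cow 4.

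PSMB7, the trypsin-like beta2, had a lowest, median and highest level of 12.45, 13.67 and 13.91 in high gain cows at biopsy 2, against 12.46, 12.89 and 13.29 at biopsy 1. PSMB7 in low gain cows had 13.10, 13.41 and 14.06 at biopsy 2, against 11.10, 12.90 and 13.45 at biopsy 1. These groups overlapped too, and the increase of 0.65 ± 0.24 was at the edge of the threshold (adjusted p = 0.0476), with 10 of 12 cows higher. It was lost when any of 9 cows was left out (all high gain cows but cow 4, and low gain cows 1, 2, 3 and 5; 0.58 to 0.71), and it was 0.43 and past the threshold without low gain cow 4. PSMB6, the caspase-like beta1, did not pass: its level was 9.15, 9.78 and 10.35 in high gain cows at biopsy 2 against 8.87, 9.60 and 10.35 at biopsy 1, while low gain cows had 9.51, 9.97 and 10.16 at biopsy 2 against 8.01, 9.55 and 9.97 at biopsy 1. The change of PSMB6 was 0.35 ± 0.17 (adjusted p = 0.117), with 9 of 12 cows higher.

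The structural genes PSMB2, PSMB3 and PSMB4 had changes of 0.58, 0.34 and 0.57 and did not pass with 12 cows. In high gain cows PSMB2 did not overlap between biopsies, with 11.26 to 11.79 at biopsy 2 against 10.57 to 11.07 at biopsy 1. The median change of the 7 beta ring genes was 0.58 with 12 cows and 0.33 without low gain cow 4, when 5 of the 7 passed. It was 0.73 with the values as deposited, when 6 passed. Of all genes, 41.5% passed without that cow (22% upward) and 40.5% with the values as deposited (28.6% upward). The median change of all genes as deposited was 0.12. The part of the scaling in the count of 6 was not tested.

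The alpha ring behaved differently from gene to gene, with a median change of -0.04 and only PSMA3 past the threshold. PSMA3 encodes alpha7, whose tail helps to close the entrance of the core. Its level was 12.57, 12.80 and 13.15 (lowest, median, highest) in high gain cows at biopsy 2, against 12.87, 13.44 and 13.87 at biopsy 1. PSMA3 in low gain cows had 12.42, 12.77 and 12.90 at biopsy 2, against 12.80, 13.21 and 14.09 at biopsy 1. The groups overlapped slightly, but every one of the 12 cows was lower at biopsy 2, by 0.01 to 1.25. PSMA3 fell by 0.57 ± 0.16 (adjusted p = 0.011), and the call was lost with the values as deposited (-0.38, adjusted p = 0.0837) and with median centring (adjusted p = 0.0517). The other 6 tested alpha genes had changes of -0.20 (PSMA7) to 0.21 (PSMA5). The median of the alpha ring was -0.18 without low gain cow 4 and 0.11 with the values as deposited, so no direction can be given for the ring as a whole. PSMA8, the testis form of alpha4, stayed dim at 5.89 to 6.60 over the 24 arrays and was not tested.

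Of the immunoproteasome genes PSMB10 rose, PSMB8 did not pass, and PSMB9 was too dim to be tested. PSMB10, which encodes beta2i, the inducible counterpart of PSMB7, had 8.80, 9.24 and 9.44 in high gain cows at biopsy 2, against 8.53, 8.83 and 8.99 at biopsy 1. PSMB10 in low gain cows had 8.68, 9.19 and 10.00 at biopsy 2, against 8.65, 8.80 and 9.22 at biopsy 1. The groups overlapped, but all 12 cows were higher at biopsy 2, by 0.02 to 1.22, and the increase was 0.40 ± 0.10 (adjusted p = 0.00772).

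PSMB8, which encodes beta5i, had 7.50, 7.60 and 8.44 in high gain cows at biopsy 2, against 7.24, 7.59 and 7.83 at biopsy 1. PSMB8 in low gain cows had 7.35, 7.67 and 8.47 at biopsy 2, against 7.23, 7.95 and 8.40 at biopsy 1. Its groups overlapped almost wholly, with a change of 0.07 ± 0.13 (adjusted p = 0.672) and 7 of 12 cows higher. It passed under no setting run, and its sign turned with array weights (-0.03) and without high gain cow 4 (-0.03). PSMB9, which encodes beta1i, had 6.25, 6.60 and 6.83 in high gain cows at biopsy 2, against 5.88, 6.04 and 6.59 at biopsy 1. PSMB9 in low gain cows had 6.41, 6.60 and 7.19 at biopsy 2, against 5.60, 5.90 and 6.45 at biopsy 1. When the limit on dim genes was lifted, PSMB9 passed with 0.61 ± 0.11 (adjusted p = 0.000518).

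PSMB11 is known from mouse and human as beta5t, the catalytic subunit of the thymus, and lay close to the limit on dim genes. Its level was 6.56, 6.67 and 7.21 in high gain cows at biopsy 2, against 7.16, 7.24 and 7.49 at biopsy 1, and in low gain cows it was 6.32, 6.48 and 6.77 at biopsy 2, against 6.86, 7.05 and 7.56 at biopsy 1. The low gain groups did not overlap, and in high gain cows a single array of biopsy 2, that of cow 5, reached into the range of biopsy 1. PSMB11 fell by 0.57 ± 0.10 (adjusted p = 0.000597), with 11 of 12 cows lower, and the feature is dim enough that a stricter limit (the 40th percentile) removed it.

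**Figure D3:**
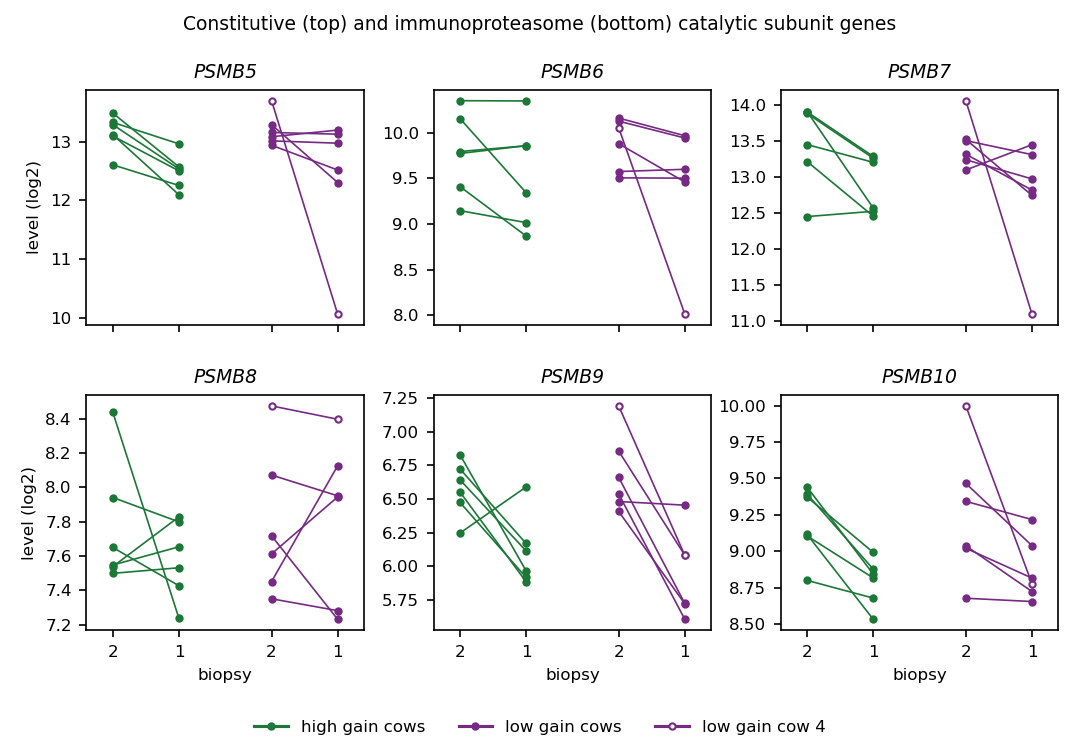
Quantile-normalized log2 levels of the constitutive catalytic genes PSMB5, PSMB6 and PSMB7 (top) and their inducible counterparts PSMB8, PSMB9 and PSMB10 (bottom) at biopsy 2 and biopsy 1, with a line for each cow; each panel has its own scale. The open symbols are low gain cow 4, whose biopsy 1 array is the lowest for the 3 constitutive genes (10.07, 8.01 and 11.10) and is not the lowest for the 3 inducible genes.

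Among the ATPases of the base PSMC4 rose and PSMC6 fell. PSMC6 encodes RPT4, and its level was 13.66, 13.85 and 14.16 in high gain cows at biopsy 2, against 14.06, 14.52 and 15.00 at biopsy 1. PSMC6 in low gain cows had 13.10, 13.74 and 14.04 at biopsy 2, against 13.35, 14.48 and 14.88 at biopsy 1. The groups overlapped in their tails, 11 of 12 cows were lower at biopsy 2, and PSMC6 fell by 0.62 ± 0.17 (adjusted p = 0.0108). It kept its direction but not its call with the values as deposited (-0.44, adjusted p = 0.0752) and with median centring (adjusted p = 0.0514).

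PSMC4 encodes RPT3, and had 12.34, 13.09 and 13.55 in high gain cows at biopsy 2, against 12.22, 12.67 and 12.99 at biopsy 1. PSMC4 in low gain cows had 12.69, 12.997 and 13.26 at biopsy 2, against 10.94, 12.69 and 13.29 at biopsy 1. The ranges overlapped over most of their length, and the increase of 0.46 ± 0.17 (adjusted p = 0.047, 10 of 12 cows higher) was lost on omission of any 1 of 9 cows (all high gain cows but cow 5, and low gain cows 1, 3, 5 and 6; 0.43 to 0.49). The other 4 ATPase genes ranged from -0.23 (PSMC3) to 0.46 (PSMC5). PSMC3 was lower in 9 of 12 cows and PSMC1 in 10 of 12; without low gain cow 4 both passed, with -0.41 and -0.31.

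In the lid, PSMD12 and PSMD7 fell and PSMD8 rose. PSMD12 encodes RPN5, and had 12.12, 12.65 and 12.94 in high gain cows at biopsy 2, against 13.05, 13.48 and 14.17 at biopsy 1, with no overlap. PSMD12 in low gain cows had 11.85, 12.66 and 12.80 at biopsy 2, against 11.86, 13.11 and 14.15 at biopsy 1, and these ranges overlapped through cows 2, 3 and 4 of biopsy 1. PSMD12 fell by 0.74 ± 0.21 (adjusted p = 0.0123) in 10 of 12 cows, which was the largest decrease of the family. The change was -0.88 without low gain cow 4 and -0.55 (adjusted p = 0.0589) with the values as deposited.

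PSMD7 encodes RPN8, the inactive partner of the lid deubiquitinase. It had 13.59, 13.97 and 14.33 in high gain cows at biopsy 2, against 14.27, 14.77 and 15.38 at biopsy 1, while low gain cows had 13.72, 13.92 and 14.20 at biopsy 2, against 13.36, 14.50 and 14.87 at biopsy 1. The high gain ranges met only at their ends, and 11 of 12 cows were lower. PSMD7 fell by 0.57 ± 0.18 (adjusted p = 0.0231). It was -0.37 with the values as deposited (adjusted p = 0.155), it also lost its call with median centring (adjusted p = 0.109), and it did not pass without high gain cow 1, high gain cow 2 or low gain cow 1 (-0.52 to -0.49, adjusted p = 0.0509 to 0.0558).

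PSMD8 encodes RPN12, the last lid subunit to join. Its level was 11.52, 11.67 and 11.98 in high gain cows at biopsy 2, against 10.88, 11.43 and 11.62 at biopsy 1, while low gain cows had 11.22, 11.85 and 12.28 at biopsy 2, against 10.68, 11.13 and 11.88 at biopsy 1. The groups overlapped, 11 of 12 cows were higher, and PSMD8 rose by 0.47 ± 0.14 (adjusted p = 0.0187). The remaining 8 lid and receptor genes had changes of -0.16 to 0.27. They include the scaffolds PSMD1 (-0.16) and PSMD2 (0.18), the ubiquitin receptor PSMD4 (-0.08) and the deubiquitinase PSMD14 (-0.16). PSMD1, PSMD4 and PSMD14 were each lower at biopsy 2 in 10 of 12 cows, and without low gain cow 4 PSMD1 (-0.34) and PSMD14 (-0.37) passed.

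Among the assembly chaperones PSMD5 and PSMG4 rose and PSMG3 fell. PSMD5 is known in human cells and in yeast as a chaperone of the regulatory base. PSMD5 had 10.83, 11.01 and 11.07 in high gain cows at biopsy 2, against 10.22, 10.50 and 10.62 at biopsy 1, with no overlap. PSMD5 in low gain cows had 10.57, 10.84 and 11.29 at biopsy 2, against 9.06, 10.41 and 10.69 at biopsy 1, and the groups overlapped. It was higher at biopsy 2 in 12 of 12 cows and rose by 0.60 ± 0.13 (adjusted p = 0.00241). The other base chaperones did not pass. PSMD9 (p27) had 10.12, 10.30 and 10.71 in high gain cows at biopsy 2, against 9.58, 10.25 and 10.63 at biopsy 1, while low gain cows had 9.82, 10.31 and 10.66 at biopsy 2, against 10.26, 10.61 and 10.76 at biopsy 1. Its change was -0.01 ± 0.15, and its sign turned under several settings. PSMD10 (gankyrin) had 10.05, 10.58 and 11.17 in high gain cows at biopsy 2, against 9.93, 10.38 and 10.95 at biopsy 1, while low gain cows had 10.15, 10.70 and 10.92 at biopsy 2, against 10.00, 10.29 and 10.47 at biopsy 1. The change of PSMD10 was 0.30 ± 0.13 (adjusted p = 0.0839).

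The 4 chaperones of the alpha ring work in pairs, PSMG1 with PSMG2 and PSMG3 with PSMG4. The members of the second pair moved in opposite directions. PSMG4 had 7.43, 7.93 and 8.19 in high gain cows at biopsy 2, against 7.53, 7.68 and 7.98 at biopsy 1, while low gain cows had 7.39, 8.06 and 9.09 at biopsy 2, against 7.25, 7.67 and 8.48 at biopsy 1. It rose by 0.29 ± 0.08 (adjusted p = 0.0139) in 10 of 12 cows, although the groups overlapped. PSMG3 had 7.97, 8.34 and 8.40 in high gain cows at biopsy 2, against 8.43, 8.52 and 8.83 at biopsy 1, with no overlap, and 8.10, 8.24 and 8.34 in low gain cows at biopsy 2, against 7.89, 8.60 and 8.74 at biopsy 1. It fell by 0.27 ± 0.08 (adjusted p = 0.0143) in 11 of 12 cows. With the values as deposited PSMG3 did not pass (-0.18, adjusted p = 0.0653).

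In the first pair neither gene passed. PSMG2 had 11.08, 12.10 and 12.38 in high gain cows at biopsy 2, against 10.93, 11.49 and 12.22 at biopsy 1, while low gain cows had 11.63, 12.14 and 12.54 at biopsy 2, against 9.24, 11.64 and 12.08 at biopsy 1. The change of PSMG2 was 0.61 ± 0.27 (adjusted p = 0.0945), and 0.36 without low gain cow 4. PSMG1 had 11.14, 11.57 and 11.88 in high gain cows at biopsy 2, against 11.29, 11.63 and 12.07 at biopsy 1, while low gain cows had 10.21, 11.33 and 12.22 at biopsy 2, against 10.26, 11.47 and 11.60 at biopsy 1. Its change was 0.04 ± 0.14, with 6 cows higher and 6 lower; low gain cow 5 was the lowest of its group at both biopsies.

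The other regulators of the core gave 3 increases. PSME1 encodes the alpha subunit of PA28, an activator that opens the core without ATP and is induced by interferon. It had 11.36, 11.88 and 12.23 in high gain cows at biopsy 2, against 10.37, 10.91 and 11.27 at biopsy 1, with no overlap. PSME1 in low gain cows had 11.52, 11.75 and 11.86 at biopsy 2, against 10.46, 10.75 and 11.82 at biopsy 1, where cows 2 and 3 lay within the range of biopsy 2. PSME1 rose by 0.86 ± 0.15, to a 1.81-fold level (adjusted p = 0.000596), in 11 of 12 cows.

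PSME2 encodes the beta subunit that joins PSME1 in the same ring, and it did not pass. Its level was 8.995, 9.57 and 10.04 in high gain cows at biopsy 2, against 9.03, 9.30 and 9.99 at biopsy 1, while low gain cows had 8.96, 9.51 and 9.57 at biopsy 2, against 8.93, 9.64 and 10.28 at biopsy 1. The groups overlapped almost wholly, with a change of -0.08 ± 0.13 (adjusted p = 0.632) and 5 of 12 cows higher; the change was 0.05 with the values as deposited.

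PSME3 encodes PA28 gamma, a nuclear activator. It had 11.00, 11.30 and 11.39 in high gain cows at biopsy 2, against 10.64, 10.87 and 11.13 at biopsy 1. PSME3 in low gain cows had 11.22, 11.32 and 11.60 at biopsy 2, against 10.44, 11.02 and 11.14 at biopsy 1, with no overlap. It rose by 0.42 ± 0.11 (adjusted p = 0.0089) in 11 of 12 cows. PSMF1 encodes PI31, which inhibits the core in vitro. It had 10.90, 11.30 and 11.65 in high gain cows at biopsy 2, against 10.02, 10.23 and 11.58 at biopsy 1, where cow 6 alone lay above 10.29. PSMF1 in low gain cows had 10.43, 11.19 and 11.69 at biopsy 2, against 9.22, 10.60 and 10.85 at biopsy 1. PSMF1 rose by 0.84 ± 0.20 (adjusted p = 0.00577) in 11 of 12 cows.

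PSME4 encodes PA200, and had 11.69, 12.94 and 13.40 in high gain cows at biopsy 2, against 12.38, 12.91 and 13.04 at biopsy 1, while low gain cows had 12.32, 12.94 and 13.33 at biopsy 2, against 10.01, 12.90 and 13.49 at biopsy 1. Its 4 medians lay close together, and the change of 0.14 ± 0.28 turned to -0.14 without low gain cow 4.

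Within a gain class fewer genes passed. In high gain cows PSME1 (0.98), PSMB1 (1.20) and PSMF1 (0.86) rose and PSMB11 (-0.55), PSMD12 (-0.94) and PSMD7 (-0.77) fell, 6 of 46 against a background of 20.3% (11.5% upward and 8.73% downward). In low gain cows PSMB1 (1.06), PSMD5 (0.68), PSME1 (0.73) and PSMG4 (0.38) rose and PSMB11 (-0.58) fell, 5 of 46 against a background of 20.3% (10.8% upward and 9.46% downward). PSMB1, PSME1 and PSMB11 passed in both classes. In high gain cows 4 genes had all biopsy 2 arrays above all biopsy 1 arrays (PSMB1, PSMB2, PSMD5 and PSME1), where 6.05% of all genes did, and 2 had them below (PSMD12 and PSMG3), where 5.13% did (11.2% in either order). In low gain cows PSMB1 and PSME3 lay above (background 4.89%) and PSMB11 below (background 4.13%, or 9.02% in either order).

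Both classes shared the estimate of spread, so the biopsy 1 array of low gain cow 4 also bears on the calls in high gain cows. Without that cow 9 genes rose and 6 fell in high gain cows, where 15.4% of all genes rose and 12.6% fell. In low gain cows 3 rose and 6 fell, where 9.75% of all genes rose and 9.15% fell. In low gain cows the median change of the 46 genes was 0.18 with 6 cows and -0.04 with 5, and that of the beta ring was 0.59 with 6 and 0.16 with 5. Calls within a class that ended when 1 cow was left out were PSMD12 (high gain cows 1, 2, 3, 4 and 6, each; -1.001 to -0.81), PSMD7 (high gain cows 1 to 5 and low gain cows 2, 3, 5 and 6; -0.85 to -0.67) and PSMF1 (high gain cows 1 to 5 and low gain cows 1, 2, 3, 5 and 6; 0.70 to 0.91) in high gain cows, and PSME1 (low gain cows 1, 5 and 6; 0.60 to 0.70) and PSMG4 (low gain cows 1, 3, 4 and 5; 0.33 to 0.40) in low gain cows.

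Whether the change itself differed between high and low gain cows was tested directly, and no proteasome gene passed. The background was 0%, since no gene of the 14198 passed; 0 of the 46 and 512 of all genes had an unadjusted limma p under 0.05. The smallest unadjusted p-values among the 46 were those of PSMD9 (difference 0.52 ± 0.30, unadjusted p = 0.102), PSMD11 (-0.56 ± 0.40, unadjusted p = 0.185) and PSME2 (0.30 ± 0.25, unadjusted p = 0.256), each with an adjusted p of 1. Mean changes of PSMD9 were 0.25 in high gain and -0.27 in low gain cows. Those of PSMD11, the lid subunit RPN6, were -0.11 and 0.46, and without low gain cow 4 its difference was -0.20. Without that cow 5 of the 46 and 735 of all genes had an unadjusted p under 0.05, PSME2 among them (0.47, unadjusted p = 0.0423).

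High and low gain cows were also compared within each biopsy and on the mean of both, with the values as deposited. Within a biopsy all arrays compared lie in 1 set, while the mean of both takes 1 array from each set for every cow. No proteasome gene passed in any of these comparisons and no gene of the array did (background 0% in each). At biopsy 2, 2 of the 46 and 334 of all genes had an unadjusted limma p under 0.05 (4.35% and 2.35%). At biopsy 1 these counts were 0 and 716 (5.04% of all genes). On the mean of both biopsies they were 2 and 526 (4.35% and 3.70%). The proteasome genes named below with such a p are to be read against these shares. At biopsy 2 the median difference of the 46 genes, high minus low gain, was 0.04, and 28 of 46 were above 0; without high gain cow 4 it was 0.11 with 34 above 0, without low gain cow 4 it was 0.09 with 35 above 0, and without both 0.13 with 38 above 0. At biopsy 1 the median was 0.18 with 38 of 46 above 0; without low gain cow 4 it was -0.06 with 18 above 0. No proteasome gene separated the classes without overlap at either biopsy, where 0.0704% of all genes did at biopsy 2 (0.0352% with high gain above and 0.0352% with it below) and 0.331% at biopsy 1 (0.162% above and 0.169% below).

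PSMD1, the scaffold RPN2 of the regulatory particle, came nearest. As deposited it had 12.04, 12.18 and 12.50 in high gain cows at biopsy 2, against 11.64, 11.91 and 12.14 in low gain cows, a difference of 0.32 ± 0.14 (unadjusted p = 0.0439, adjusted p = 1). At biopsy 1 PSMD1 had 12.01, 12.41 and 12.88 in high gain cows, against 9.96, 11.94 and 12.37 in low gain cows, a difference of 0.67 ± 0.37. The classes overlapped at both biopsies. On the mean of both biopsies the difference was 0.50 ± 0.20 (unadjusted p = 0.0254, adjusted p = 0.999), and 0.33 (unadjusted p = 0.0328) without low gain cow 4.

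PSMA1, which encodes alpha6, had 11.74, 11.90 and 12.02 in high gain cows at biopsy 2, against 11.18, 11.69 and 11.80 in low gain cows, a difference of 0.31 ± 0.14 (unadjusted p = 0.0448, adjusted p = 1). PSMB11 had a mean over both biopsies of 6.82, 6.97 and 7.23 in high gain cows, against 6.68, 6.81 and 6.93 in low gain cows, and the difference was 0.17 ± 0.07 (unadjusted p = 0.0402, adjusted p = 0.999). Each of these pairs of ranges overlapped. At biopsy 1 the smallest p-values were those of PSMG1 and PSMD9, in opposite directions. PSMG1 had 11.29, 11.56 and 12.002 in high gain cows, against 10.21, 11.30 and 11.48 in low gain cows (0.45 ± 0.24, unadjusted p = 0.0799). PSMD9 had 9.53, 10.23 and 10.58 in high gain cows, against 10.22, 10.47 and 10.64 in low gain cows (-0.37 ± 0.20, unadjusted p = 0.089).

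**Figure D4:**
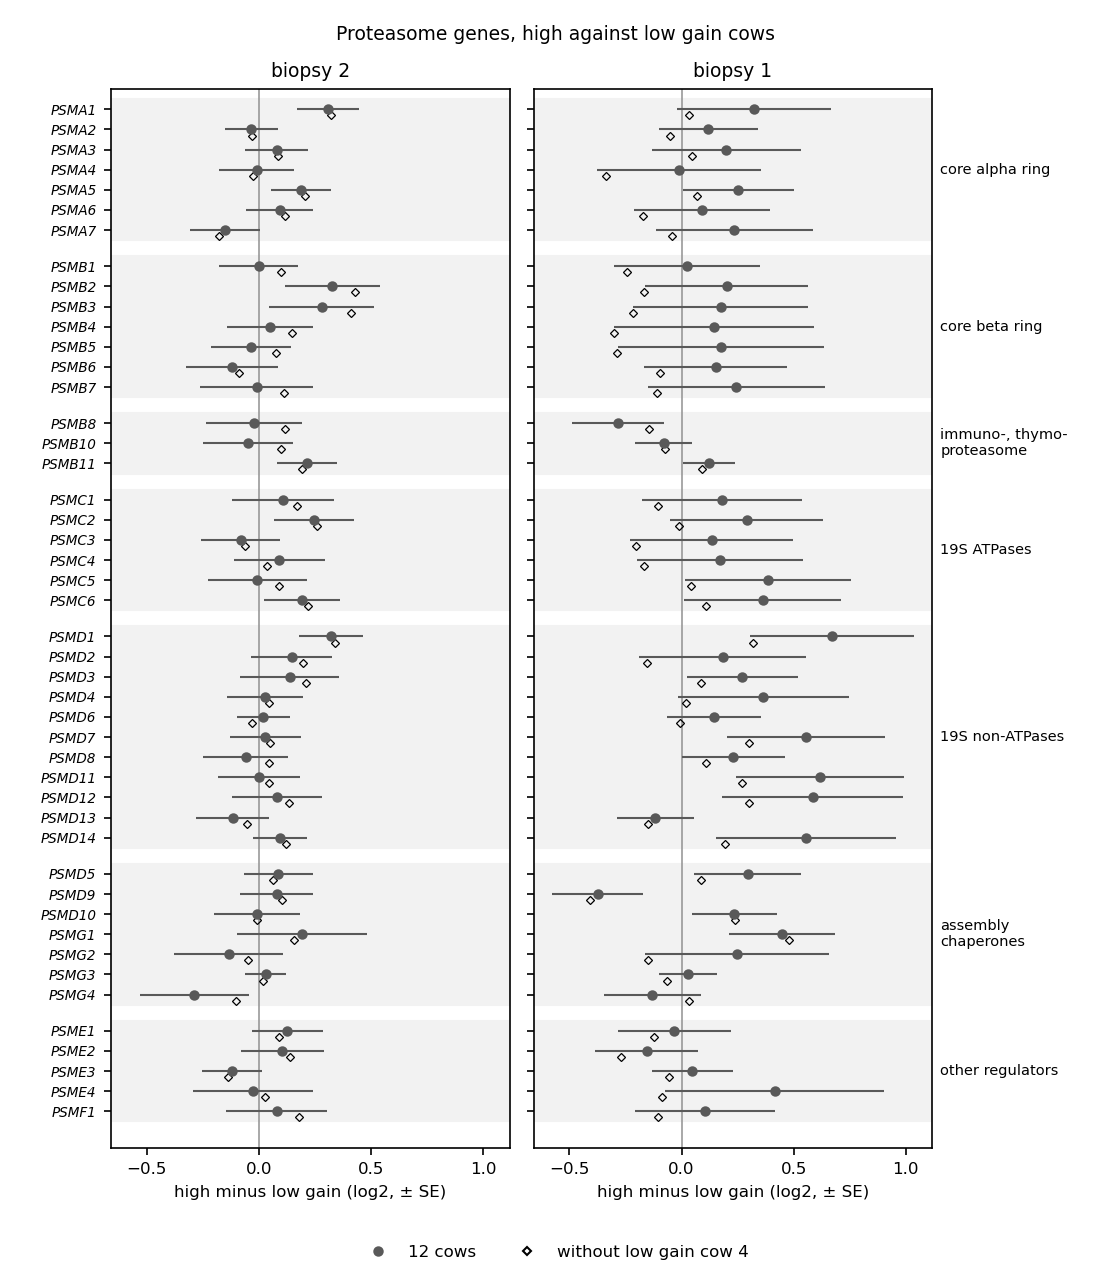
Difference between gain classes for each proteasome gene, as high minus low gain on the log2 scale of the deposited values with limma's standard error, at biopsy 2 (left) and biopsy 1 (right), for 12 cows (filled circles) and without low gain cow 4 (open diamonds). No gene passed; at biopsy 1 the circles lie mostly right of 0 (38 of 46) and the diamonds do not (18 of 46).

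Genes whose products work together were set against each other across the 12 cows of a biopsy, in 8 relations with permutation tests (2-sided, 100000 resamples, Benjamini-Hochberg over the 8). PSME1 and PSME2, the PA28 subunits, varied together at biopsy 1 (Pearson r = 0.805, adjusted permutation p = 0.0166; Spearman rho = 0.741, adjusted permutation p = 0.0436). Within the classes r was 0.921 in high gain and 0.823 in low gain cows, and without the 2 cows farthest from the median of PSME1 it was 0.773. At biopsy 2 r was 0.494 (adjusted permutation p = 0.163), and 0.009 without the 2 farthest cows. Within the classes at biopsy 2 it had opposite signs, 0.726 in high gain and -0.460 in low gain cows. The difference between the biopsies was not tested. PSMB10 and its constitutive counterpart PSMB7 had r = 0.599 at biopsy 2 (adjusted permutation p = 0.0878; rho = 0.720, adjusted permutation p = 0.0436) and 0.479 without the 2 farthest cows, against -0.110 at biopsy 1. PSMB8 and PSMB10 had 0.593 at biopsy 2 and 0.394 at biopsy 1, with adjusted permutation p = 0.0878 and 0.272. PSMB8 and PSMB5 had 0.139 at biopsy 2 and -0.608 at biopsy 1, and the value at biopsy 1 rested on low gain cow 4 (-0.037 without it). Within the classes at biopsy 2, PSMB8 and PSMB5 also had opposite signs, -0.694 in high gain and 0.817 in low gain cows. PSMB8 and PSMB10 had 0.109 in high gain and 0.867 in low gain cows there, and PSMB10 and PSMB7 had 0.536 and 0.810.

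**Figure D5:**
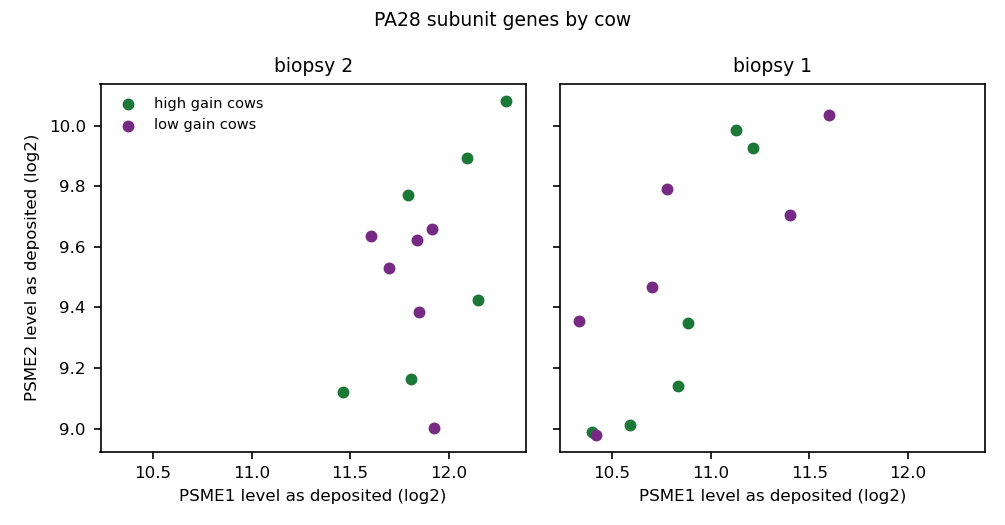
PSME2 against PSME1, the genes of the 2 PA28 subunits, as deposited log2 levels with 1 point per cow, at biopsy 2 (left) and biopsy 1 (right). At biopsy 1 the points rise together in both gain classes (r = 0.805 over 12 cows), and at biopsy 2 they lie further right, with r = 0.726 in high gain and -0.460 in low gain cows.

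Some of these genes are neighbours in the RefSeq annotation of the cattle assembly ARS-UCD2.0. PSME2 and PSME1 lie on chromosome 10 with EMC9 between them, and IRF9, an interferon response factor, is the second gene before PSME2. IRF9 rose by 0.35 and PSME1 by 0.86, while PSME2 did not pass. PSMB8, TAP1 and PSMB9 follow each other on chromosome 23; TAP1, a peptide transporter of antigen presentation, rose by 0.40 in 8 of 12 cows. PSMB11 and PSMB5, also adjacent on chromosome 10, overlap in that annotation, and PSMB5 rose while PSMB11 fell. Overlaps with the next gene were also annotated for PSMB10 (LCAT), PSMD1 (HTR2B), PSMD6 (ATXN7) and PSMG2 (PTPN2), so their features could in principle read a neighbour; this was not tested.

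The levels of partners and controllers of the proteasome outside the symbol rule were read from lists chosen with earlier results of these data known. Their counts are to be read against the 38.1% of all genes that changed (20.8% upward and 17.4% downward), or 41.5% without low gain cow 4. Of 17 partner genes tested 2 rose and 3 fell, a share below that background. FBXO7, an F-box protein that binds PI31, had 9.60, 10.33 and 10.47 in high gain cows at biopsy 2, against 9.10, 9.40 and 9.65 at biopsy 1, while low gain cows had 9.60, 9.99 and 10.26 at biopsy 2, against 8.72, 9.42 and 9.68 at biopsy 1. It rose by 0.71 ± 0.10 (adjusted p = 0.000146) in 12 of 12 cows. PAAF1, which binds the ATPases, rose by 0.41 as well. POMP, the maturation factor of the core, fell by 0.49 ± 0.14 (adjusted p = 0.0135) in 11 of 12 cows, with 15.71, 15.86 and 15.98 in high gain cows at biopsy 2, against 16.31, 16.47 and 16.71 at biopsy 1. POMP in low gain cows had 15.35, 15.95 and 16.25 at biopsy 2, against 15.57, 16.33 and 16.70 at biopsy 1, and these ranges overlapped. UCHL5, a deubiquitinase of the regulatory particle, fell by 0.59, and PITHD1 by 0.56. The 3 decreases lost their calls with the values as deposited. Without low gain cow 4, 2 partners rose and 6 fell.

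Among 10 tested genes that control proteasome transcription, 3 rose and 3 fell. NFE2L1, the factor that drives proteasome genes when activity is short, had 13.91, 15.87 and 16.38 in high gain cows at biopsy 2, against 14.10, 15.00 and 15.64 at biopsy 1, while low gain cows had 15.10, 15.47 and 16.07 at biopsy 2, against 12.83, 14.56 and 15.04 at biopsy 1. It rose by 0.95 ± 0.28 (adjusted p = 0.0155) in 11 of 12 cows; the low gain groups did not overlap and the high gain groups did. KEAP1, which holds the related factor NFE2L2 in check, rose by 0.93, and FOXO3, a factor of muscle atrophy, by 0.35. FOXO1, its relative, fell by 1.15 ± 0.38 (adjusted p = 0.0285) in 10 of 12 cows, BACH1 by 0.81 and MAFG by 0.35. The share called, 60%, was above the 38.1% background. The list holds only 10 tested genes and was chosen with earlier results known, so no conclusion is drawn from that share. MAFG lost its call with the values as deposited (3 up, 2 down), and without low gain cow 4, 3 rose and 4 fell. UBA1, the enzyme that activates ubiquitin, had 11.21, 11.51 and 11.74 in high gain cows at biopsy 2, against 10.14, 10.58 and 10.85 at biopsy 1, while low gain cows had 11.31, 11.68 and 11.81 at biopsy 2, against 9.10, 10.59 and 11.10 at biopsy 1. All its biopsy 2 arrays lay above all those of biopsy 1 (background 1.63%), and UBA1 rose by 1.05 ± 0.17 (adjusted p = 0.000505). UBA1 came from a separate list of 6 genes for ubiquitin and its activating enzymes, of which 2 were tested. The other, UBA6, had a change of -0.03 and did not pass.

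Of 11 genes around VCP, the ATPase that extracts ubiquitinated proteins, the cofactors UFD1 (0.39) and NSFL1C (0.57) rose and FAF2 (-0.39) and UBXN7 (-0.39) fell, a share near the background. As deposited 3 rose and 1 fell, with UBXN7 no longer called, and without low gain cow 4, 2 rose and 4 fell. Of 9 antigen presentation genes, ERAP2 (0.49), TAPBP (0.55) and TAP1 (0.40) rose and CALR (-0.88) and CIITA (-0.30) fell. The share called, 55.6%, was above the background, in a list too short to draw a conclusion from. As deposited 3 rose and 1 fell, with CIITA no longer called, and without low gain cow 4, 4 rose and 2 fell. Of 19 interferon genes 3 rose and 4 fell, a share near the background. The factors IRF9 (0.35), IRF1 (0.36) and IRF7 (0.26) were higher, and MX1 (-1.02), RSAD2 (-0.65), MX2 (-0.25) and the receptor gene IFNGR1 (-0.69) were lower at biopsy 2. MX1 had 7.28, 7.63 and 8.14 in high gain cows at biopsy 2, against 8.35, 8.57 and 9.32 at biopsy 1. MX1 in low gain cows had 7.03, 7.35 and 8.31 at biopsy 2, against 7.66, 8.36 and 9.59 at biopsy 1, and these ranges overlapped. As deposited 5 interferon genes rose and 2 fell, with MX2 and IFNGR1 no longer called, and without low gain cow 4, 4 rose and 4 fell.

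Markers of other cells moved between the biopsies as follows. Of 12 leukocyte markers 3 rose (C1QA, CD14 and CSF1R) and 4 fell (CD53, PTPRC, CD163 and AIF1), where 20.8% of all genes rose and 17.4% fell, and their mean level was 7.91 to 8.68 in high gain cows at biopsy 2, against 8.03 to 8.51 at biopsy 1, and 7.82 to 8.57 in low gain cows at biopsy 2, against 7.96 to 8.85 at biopsy 1. None of 8 adipocyte, 12 muscle fibre and 8 fibroblast markers passed with 12 cows, and of 8 endothelial markers CLDN5 rose and TEK fell. Of the muscle fibre markers TTN was 19.87 on every array, and ACTA1, MB and PYGM had that value as the median of every group. Features at the top of the scale can show little change, which limits the calls and the median change of that list. Without low gain cow 4 the muscle fibre gene TNNT3 fell (-0.44), the fibroblast gene LUM rose (1.15), and 3 endothelial markers rose and 1 fell. The median change of the muscle fibre markers was 0.34 with 12 cows and -0.0045 without that cow, that of the adipocyte markers -0.12 and 0.27, and that of the fibroblast markers 0.083 and 0.37. The adipocyte marker mean was 9.05 to 16.7 in high gain cows at biopsy 2, against 9.58 to 13.03 at biopsy 1, and 9.72 to 14.03 in low gain cows at biopsy 2, against 9.79 to 15.8 at biopsy 1. The part of any of these cells in the changes of PSMB10, PSME1 and the other proteasome genes was not tested.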

How the data were processed

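Muscle RNA of 12 cows at 2 biopsies was measured on 24 Affymetrix arrays, from 250 ng of total RNA per the labels' protocols. Per the submitters' processing notes the software was Expression Console with Transcriptome Analysis Console, and the authors deposited 1 table of values taken as log2 from their range. The sources used here do not give the normalization. The platform table gives 1 gene for 18790 of 26773 features, several for 385 and none for 7598; all 48 proteasome genes matched the RefSeq table by Entrez number, and no symbol changed.

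Tests used limma 3.58.1 in R 4.3.3 (lmFit, then eBayes with trend set), p-values adjusted by Benjamini-Hochberg over 14198 genes and a threshold of 0.05, and were tested on simulated data. The change between biopsies was fitted on quantile-normalized values with the cow as a fixed block, since titles carry the animal number; deviations from group means of both arrays of a cow had correlations of -0.20 to 0.35 (median 0.16). Gain classes were compared on the deposited values. Errors are limma's SE, and the number of arrays limits precision. The members, the gene lists and the tests were chosen with earlier results of these data known. Values by group are given, by rule, for genes past the threshold in all cows, catalytic, regulator and assembly genes, and the 3 smallest p-values of each gain comparison. Others named were chosen after their values were seen. Alternatives covered scaling, the limit on dim genes, array weights, moderation, features of a gene, the block and omission of cows. Sequences were not used here, and coordinates of the RefSeq annotation served only for the order and overlap of neighbouring genes.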

Additional observations from a re-analysis of the deposited data

Results flagged for a closer look

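The lowest or highest array of a group of 6 was compared with its nearest neighbour by Dixon's ratio (critical value 0.625) for 28 proteasome genes in 4 groups. It stood apart in 22 of 112 groups, where chance alone gives about 1 in 20 for independent groups. The groups share the same 24 arrays, and over all 14198 genes the share of genes with such an array was from 5.3% in low gain cows at biopsy 2 to 20.6% in low gain cows at biopsy 1. Of the 22, 12 were the biopsy 1 array of low gain cow 4, which was the lowest of its group for PSMB1 (13.99), PSMB5 (10.07), PSMB6 (8.01), PSMB7 (11.10), PSMA1 (9.97), PSMC4 (10.94), PSMD1 (10.08), PSMD11 (10.51), PSMD5 (9.06), PSMG2 (9.24), PSMG3 (7.89) and PSME4 (10.01). This is the array with a muscle fibre marker mean of 15.3, and it was the lowest and stood apart for 9.17% of all genes.

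The other 10 were spread over 8 arrays. High gain cow 4 was the lowest of its group for PSME4 at both biopsies, with 11.69 at biopsy 2 and 12.38 at biopsy 1, and for PSMG3 at biopsy 2 with 7.97. Low gain cow 2 was the lowest at biopsy 2 for PSMA3 (12.42) and PSMD10 (10.15). PSMB11 was highest at biopsy 2 in high gain cow 5 with 7.21. At biopsy 1 PSMF1 was highest in high gain cow 6 (11.58), PSMG4 in high gain cow 1 (7.98) and PSMG3 in high gain cow 5 (8.83), and PSMG1 was lowest in low gain cow 5 (10.26).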

How the results depend on the processing

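Counts of proteasome genes that rose and fell in all cows were 11 and 6. With the values as deposited they were 18 and 1, with median centring 13 and 3, and without the 2 cows with an array apart 12 and 10. Leaving out 1 cow gave 8 to 13 up and 5 to 10 down. The share of all genes called in all cows was 38.1%, with 40.5% as deposited and 38.1% with median centring. It was 42.5% without the 2 cows and 32.5% to 41.5% without 1 cow. In high gain cows the counts were 3 and 3; 6 and 1 with the values as deposited, 1 down with median centring, 5 up with no limit on dim genes, 5 down with no trend in the moderation, 10 and 6 with array weights, 9 up without the 2 cows, and 2 to 9 up and 1 to 6 down without 1 cow. In low gain cows they were 4 and 1; 10 up with the values as deposited, 8 up with median centring, 3 down with cyclic loess, 0 down with the stricter limit (which removed PSMB11), 2 down with no trend, 5 down with array weights, 6 down without the 2 cows, and 2 to 5 up and 1 to 6 down without 1 cow. The share of all genes called in high gain cows was 20.3%, with 23.4% as deposited and 20.5% with median centring. It was 32.6% with array weights, 28.5% without the 2 cows and 12.3% to 28% without 1 cow. For low gain cows it was 20.3%, with 22.3% as deposited and 20.4% with median centring. It was 22.4% with array weights, 22.9% without the 2 cows and 13.8% to 20.7% without 1 cow. The cause of these shifts was not tested. With no replicate block the counts were 10 and 6 in all cows, 3 and 3 in high gain cows and 6 and 1 in low gain cows. The shares of all genes called were then 38.5%, 21.9% and 22%. All gain comparisons and the difference of the changes gave 0 calls under every setting run, the replicate block included.

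The sign turned for genes near 0 in all cows: PSMD9 (0.14 as deposited, 0.057 with median centring, 0.012 with cyclic loess, 0.0036 without the 2 cows, and, with 1 cow left out, -0.079 to 0.069, above 0 for high gain cows 3, 4 and 6 and low gain cows 2, 3 and 6), PSME2 (0.045 as deposited), PSMB8 (-0.034 with array weights, -0.039 without the 2 cows, and below 0, at -0.027, when high gain cow 4 was left out), PSME4 (-0.063 with array weights, -0.072 without the 2 cows, and -0.14 to 0.28 with 1 cow left out, below 0 for low gain cow 4) and PSMG1 (-0.023 to 0.089 with 1 cow left out, below 0 for high gain cow 3 and low gain cows 3 and 6). The correlation of PSMB10 with PSMB7 at biopsy 1 was 0.085 on quantile-normalized values. PSMB11, PSMB8 and PSMG4 were the dimmest tested, so their signal lay nearest to the background. Their standard errors in all cows were smaller than those of the brighter genes PSME4, PSMB5 and PSMG2.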
